A study of Mus musculus with 82 samples.

Results

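The 10 genes of the mouse HoxB cluster, Hoxb1 to Hoxb9 and Hoxb13, were followed by chromatin immunoprecipitation in mouse stembryos. Stembryos, also called gastruloids, are aggregates of mouse embryonic stem (ES) cells that elongate like a posterior body axis after a pulse of the Wnt agonist Chiron. The genes were taken by name, not by any measured value, and make up 10 of the 21829 protein-coding genes measured. They lie on chromosome 11 of mm10, all on the plus strand, between 96193443 and 96368136. Hoxb13 stands at the low-coordinate end and Hoxb1 at the other, and a stretch of 73315 bp separates the windows of Hoxb13 and Hoxb9. A gene window is the coding span with 1 kb added on each side, which gave windows of 3310 to 5315 bp. The value of a gene in a library is the percent of its window inside regions called as enriched.

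Hox genes encode homeodomain transcription factors that give cells along the head-to-tail axis their identity. Within a cluster the genes are switched on in the order of their positions, which is called temporal collinearity, with Hoxb1 at the anterior, early end and Hoxb13 at the posterior, late end. Hoxb1 patterns the hindbrain, and Hoxb6 to Hoxb9 act in the trunk. Silent Hox genes are covered by H3K27me3, the mark of Polycomb repression, and active ones carry H3K27ac, a mark of active promoters and enhancers. RNA polymerase II (PolII) and its elongating form, phosphorylated at serine 2 (pSer2 PolII), report transcription. CTCF binds an oriented DNA motif at which cohesin, the ring that extrudes chromatin loops and contains RAD21, is halted, and NIPBL loads cohesin. CDX2, itself a homeodomain protein, acts in the posterior embryo and regulates trunk Hox genes.

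Groups were defined by genotype and by hours after aggregation. The mutant lines lack CTCF-binding sites (CBS) of the HoxD cluster on chromosome 2, named Del(CBS1), Del(CBS1-2), Del(CBS1-5), Del(CBS2) and Del(CBS4), or carry inserted sites near CBS1, Ins(2xCBS-d4d8). No line is edited in HoxB. H3K27ac was profiled in Del(CBS1) and Del(CBS1-2) at 96 h and 120 h with 2 libraries each, against wild type (wt) with 3 libraries at 96 h, 3 at 120 h and 1 at each of 48, 72, 84, 108, 132, 144 and 168 h. H3K27me3 was profiled in 2 Del(CBS1-5) libraries at 96 h, against 3 wt libraries at 96 h and 1 each at 72, 120 and 144 h. RAD21 was profiled in 2 Del(CBS1) libraries at 96 h and 1 Del(CBS1-5) library at 120 h, against 16 wt libraries from 48 h to 168 h. CTCF was profiled in 1 library each of Del(CBS1), Del(CBS1-2), Del(CBS1-5) and Del(CBS2) at 96 h, Del(CBS4) at 120 h and Ins(2xCBS-d4d8) at 144 h, and in wt at 72 h and 168 h, so that no mutant CTCF library has a wt library of its stage. NIPBL and total PolII (8 wt libraries each, 72 to 168 h), pSer2 PolII (5 wt stages) and CDX2 (wt at 72, 96 and 120 h) were profiled without mutants. The Del(CBS1-2) line was made from Del(CBS1) cells and the Del(CBS1-5) line came from mutant blastocysts, whereas the other lines were clones edited from the wt ES cells, so that line and genotype cannot be told apart. Each library came from pooled stembryos. The study describes the mutant and wt duplicates as biological and only some replicates as coming from different cultures, without naming them, and the labels do not tell, so that part of the spread between replicates may be technical.

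The 80 lists held 147 to 71196 regions. The background, 1.12 to 7.21 fragments a base, stands for depth because peak lists give no read totals. The study lists sequenced read pairs for most libraries, and for NIPBL they were fewest at 72 h and most at 168 h. These totals were not used here. Some libraries stand apart. The CDX2 list at 72 h held 147 regions, against 4501 at 96 h and 2272 at 120 h. NIPBL lists held 6652 and 4888 regions at 72 h and 84 h, against 18588 to 40490 later, and pSer2 PolII held 3987 and 6674 at 84 h and 144 h, against 16045 to 24177 at the other stages. The unnumbered wt H3K27ac lists at 96 h and 120 h held 42641 and 32590 regions, against 50882 to 59284 in the numbered wt lists of those stages. As a check of stage, H3K27ac lay at the starts of 6 of 6 naive pluripotency genes at 48 h and 72 h and of 2 to 4 afterwards. Of the paraxial mesoderm genes 6 of 6 had it from 108 h to 132 h, and 2 or 3 of 6 before and after. Cardiac and blood genes had it at 1 to 3 of 4 starts up to 96 h and at 0 of 4 from 108 h onward. The other lists gave no such division by stage. Over all stages neural genes had it at 1 to 3 of 4 starts and endoderm genes at 1 to 3 of 3. Extraembryonic genes had it at 0 to 2 of 3 and axial progenitor genes at 3 to 6 of 6.

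CTCF was called at 29 places between the ends of the cluster in at least 1 of the 8 lists, and 12 of these sites, here B1 to B12 from the Hoxb13 side, were called in both wt lists, out of 48714 such sites in the genome. The first 6 lay in the long stretch between Hoxb13 and Hoxb9, B7 (chr11:96278556-96279229) between Hoxb9 and Hoxb8, B8 (chr11:96294385-96295274) in an intron of the upstream Hoxb6 transcript, and B9 (chr11:96302733-96303577) just before the Hoxb5 start. B10 lay between Hoxb5 and Hoxb4, B11 in an intron of the upstream Hoxb3 transcripts and B12 over a coding exon of Hoxb3. No site of both wt lists lay between the Hoxb3 coding exons and Hoxb1, the anterior end of the cluster. Fold enrichment over the local background ran from 3.95 (B11) to 14.2 (B10) in the 72 h list and from 3.66 (B11) to 13 (B9) in the 168 h list.

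A motif matrix of 19 bp was learnt on 1500 CTCF sites bound in both wt lists and matched 85% of 1500 others within 100 bp of the summit, against 5% of positions 1000 bp away. Of the 12 sites of the cluster 10 had a match. B1 to B6, B8 and B12 carried it on the minus strand, B7 and B9 on the plus strand, and B9 also had a weaker one on the minus strand. The match is printed for the sites that the RAD21 results turn on, 5′ to 3′ on its own strand from the mm10 sequence, with the 12-base core in capitals.
B3 (minus, chr11:96235102-96235120): cggCCGGCAGGGGTCactg
B4 (minus, chr11:96240418-96240436): cagACACTAGAGGGTgctc
B6 (minus, chr11:96261749-96261767): cgaCCTCTAGGCGGCgccc
B7 (plus, chr11:96278945-96278963): tggCCGCTAGATGGCatcc
B8 (minus, chr11:96294694-96294712): cggACGGTAGATGGCagca
B9 (plus, chr11:96303242-96303260): tcgCCGGGAGGTGGCgcgc
Read along the cluster, the matches ran toward Hoxb13 at B1 to B6, toward Hoxb1 at B7, and changed direction again at B8 and at B9. The match score ran from 11.6 (B1) to 24.9 (B2), and that of B9 was 11.7.

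The CTCF lists of the 6 mutant lines, edited in HoxD only, were read for the same sites. Of the 12 sites 9 were called in all 8 lists. B5 was not called in Del(CBS4), whose list was the shortest with 25762 regions against 41777 in Del(CBS2) and 64255 in wt at 72 h. B10 was not called in Del(CBS2) and Del(CBS4), and B11, the lowest site, was called in the wt lists only. Over Hoxb2 a region of low enrichment (chr11:96352499-96354178, fold enrichment 3.45 in wt at 168 h, no motif match) was called in 5 of the mutant lists and in wt at 168 h, but not in wt at 72 h. A region in a Hoxb3 intron (chr11:96332585-96333647) was called in Del(CBS1), Del(CBS4) and Ins(2xCBS-d4d8) and in neither wt list. With 1 library a line and no wt library of the same stage, none of these differences has a replicate check, and line and stage cannot be told apart.

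**Figure D1:**
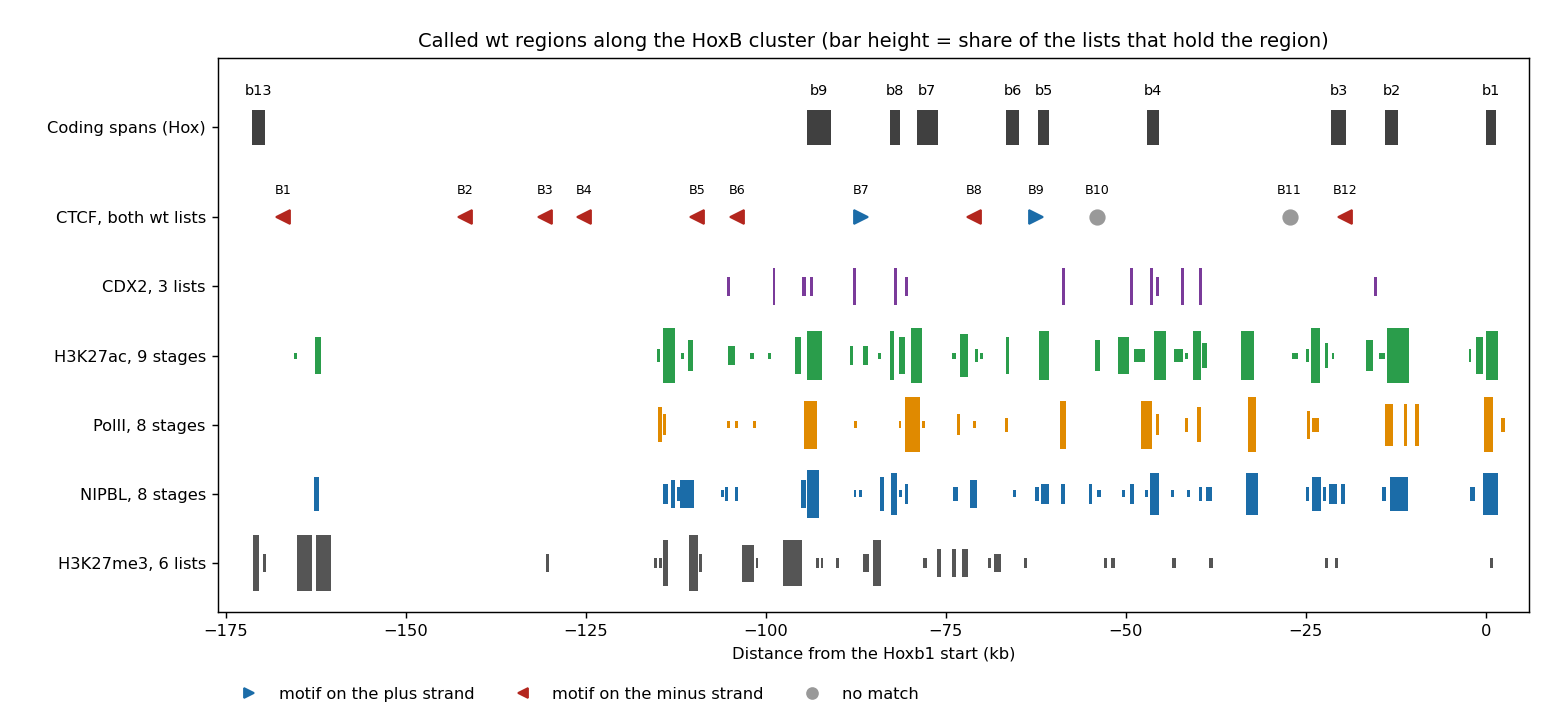
Regions called in wt along the HoxB cluster, by distance from the Hoxb1 start in kb. Bar height is the share of the wt lists of an assay that hold the region, triangles are CTCF sites of both wt lists with their motif strand, and dark boxes are coding spans. The stretch between Hoxb13 and Hoxb9 holds 6 CTCF sites and H3K27me3 but few active regions in its left part.

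CDX2 was absent from the cluster at 72 h and present at 13 regions at 96 h and 9 at 120 h, 8 of them shared. The tallest stood between Hoxb5 and Hoxb4 (chr11:96316306-96316789), with its summit at -1767 bp from the Hoxb4 start, and had a pileup of 159 fragments at 96 h and 99 at 120 h. Next came the Hoxb4 intron (98 and 83 fragments at 96 h and 120 h), the Hoxb8 intron (83 and 81) and the first intron of the upstream Hoxb3 transcript (82 and 47). No CDX2 region lay in the windows of Hoxb1, Hoxb2, Hoxb3, Hoxb5, Hoxb6, Hoxb7 or Hoxb13, and the region nearest to Hoxb2 (chr11:96350216-96350448) was called at 96 h only, with 29 fragments and no motif. The 72 h list was short throughout, so that absence there says only that no enrichment reached its threshold.

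The letters TTTATNG, the core of the known CDX motif, were searched on both strands within 50 bp of each CDX2 summit. They were found at 11 of 13 summits of the cluster at 96 h and 8 of 9 at 120 h. Over all summits the shares were 29.6% of 4654 at 96 h, 34.8% of 2351 at 120 h and 6.63% of 181 at 72 h, and 500 bp away they were 5.33%, 5.49% and 4.97%. The sites with the tallest summits are shown with the match in capitals and 8 bases on each side.
Upstream of Hoxb4 (plus, chr11:96316453-96316475): ctgcaactTTTATGGttcctcat
Hoxb4 intron (minus, chr11:96319383-96319405): cataaaaaTTTATGGgcgatgta
Hoxb8 intron (plus, chr11:96283679-96283701): tttactgtTTTATGGgggctgtg
Hoxb3 intron (plus, chr11:96323573-96323595): ggttttatTTTATGGaggatgct
All 4 carry the form TTTATGG. A further region between Hoxb9 and Hoxb8 (chr11:96277887-96278256), near B7, held 3 matches within 50 bp of its 96 h summit.

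H3K27ac was called over 2 of the 10 windows at 48 h, the start of the Chiron pulse, and over 7 to 9 of them from 72 h onward. The time course rests on 1 wt library a stage, the unnumbered one at 96 h and 120 h, and in these bulk samples more cells with a mark and more of the mark per cell cannot be told apart. At the stages 48, 72, 84, 96, 108, 120, 132, 144 and 168 h, the mean over Hoxb1 to Hoxb9 was 1.5, 16.3, 30.3, 36.0, 30.1, 26.8, 29, 23.7 and 31.4% of the window. The windows with a region numbered 2, 8, 8, 9, 9, 9, 7, 8 and 9. Over all protein-coding genes the share with a region was 60.6% at 48 h and 50.0% at 168 h, and the lists held 67663 and 36784 regions.

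At 72 h the anterior genes had the widest coverage. Hoxb1 had 0, 38.7, 63.4, 66.7, 48.1, 46.1, 52.8, 50.2 and 62.1% of its window covered at the 9 stages in order. Hoxb2, which acts in the hindbrain, had 6.37, 37.3, 56.0, 85.1, 66.9, 68.1, 66.9, 59.4 and 68.7%. Both were covered over more of their windows than any posterior member at 72 h, and both were highest at 96 h in the unnumbered libraries. The numbered wt libraries at 96 h had lower means, 57.1% for Hoxb1 and 56.2% for Hoxb2. The stage of widest coverage thus depended on the library.

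Among the central and posterior genes, Hoxb4 had 0%, 17.0%, 29%, 44.3%, 37.2%, 35.8%, 40.9%, 14.3% and 35.1%, again highest at 96 h. This too rested on the unnumbered library, as the numbered wt libraries at 96 h had a mean of 18.4% for Hoxb4. Hoxb7 had 7.14% at 48 h, 9.73% at 72 h, 24.5% at 84 h and 21.4% to 33.0% from 96 h onward. Hoxb9 had 0% at 48 h, 14.5% at 72 h and 20.2% to 32.3% from 84 h onward. In the unnumbered libraries all 3 had reached their later range by 96 h. Hoxb8 stayed at 10.8% to 33.1% from 72 h, Hoxb5 at 7.36% to 40.3% with its highest value at 84 h, and Hoxb3 and Hoxb6 never passed 10.8% and 9.92%. Hoxb13 had no H3K27ac region in its window at any stage.

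**Figure D2:**
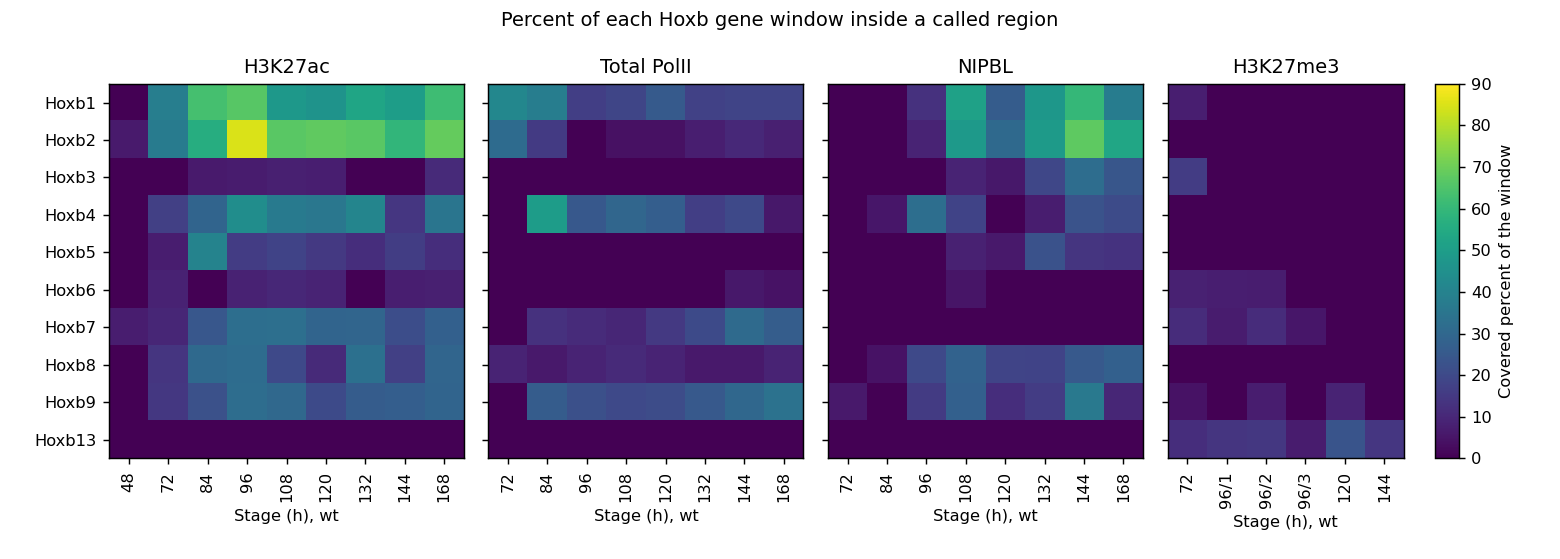
Percent of each Hoxb gene window inside a called region, by assay (panels) and stage in hours (columns), in wt libraries. By 84 h H3K27ac is called in 8 of the 10 windows, NIPBL is called in few windows before 96 h, and H3K27me3 is called at Hoxb13 in all 6 lists.

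The question whether coverage followed time was tested with Spearman's rho over the 9 stages and an exact two-sided permutation p, adjusted by Benjamini-Hochberg over all 14960 genes covered at 1 stage or more. Of the 9 Hoxb genes tested none passed in either direction, beside a background of 0.0802% of genes rising (12 genes) and 1.58% falling (237 genes). The correlation coefficient ran from 0.12 (Hoxb6) to 0.62 (Hoxb2, adjusted p = 0.263 in the exact permutation test, Pearson's r = 0.67), with a median of 0.38 over the Hoxb genes and -0.40 over all genes tested. No Hoxb gene reached an unadjusted p under 0.05, against 294 rising and 3328 falling genes overall. With the 2 stages at the largest distance from the middle one left out, Pearson's r was 0.38 for Hoxb2, 0.42 for Hoxb9 and -0.06 for Hoxb1, against 0.67, 0.71 and 0.61 over all 9, so that these relations rested in part or in whole on those stages. Of the 27 Hox genes tested in HoxA, HoxC and HoxD 1 passed, Hoxd9 (rho = 0.95, adjusted p = 0.0458 in the exact permutation test, 0% at 48 h and 88.9% at 168 h), and Hoxc10 came next (rho = 0.83, adjusted p = 0.0955 in the same exact test).

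Heights were compared as relative pileup, the highest recovered pileup of a window divided by the geometric mean over 9483 starts with a summit in every H3K27ac list. Hoxb1 had 1.47, 2.17, 2.76, 2.38, 1.86, 1.62, 1.70 and 1.66 times that mean at the 8 stages from 72 h to 168 h. Hoxb4 had 0.318, 1.76, 2.5 and 3.15 from 72 h to 108 h and 2.54 to 2.72 thereafter. At 72 h Hoxb1 and Hoxb2 (1.26) stood above the mean of common starts, and the 6 other genes with a value stood at 0.200 to 0.448. Hoxb7 had 0.263, 0.448, 1.13 and 2.47 from 48 h to 96 h and 1.76 to 2.76 thereafter. Hoxb9 had 0.200 at 72 h, 0.838 at 84 h, 1.40 to 1.74 from 96 h to 120 h and 1.98 to 2.19 from 132 h to 168 h. These are the unnumbered libraries, and the numbered wt ones stood elsewhere, with 3.85 and 3.46 for Hoxb4 at 96 h and 2.66 and 2.77 for Hoxb7 at 120 h. The stage of the highest value of a gene thus depended on the library, and no test was made of an order of stages.

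**Figure D3:**
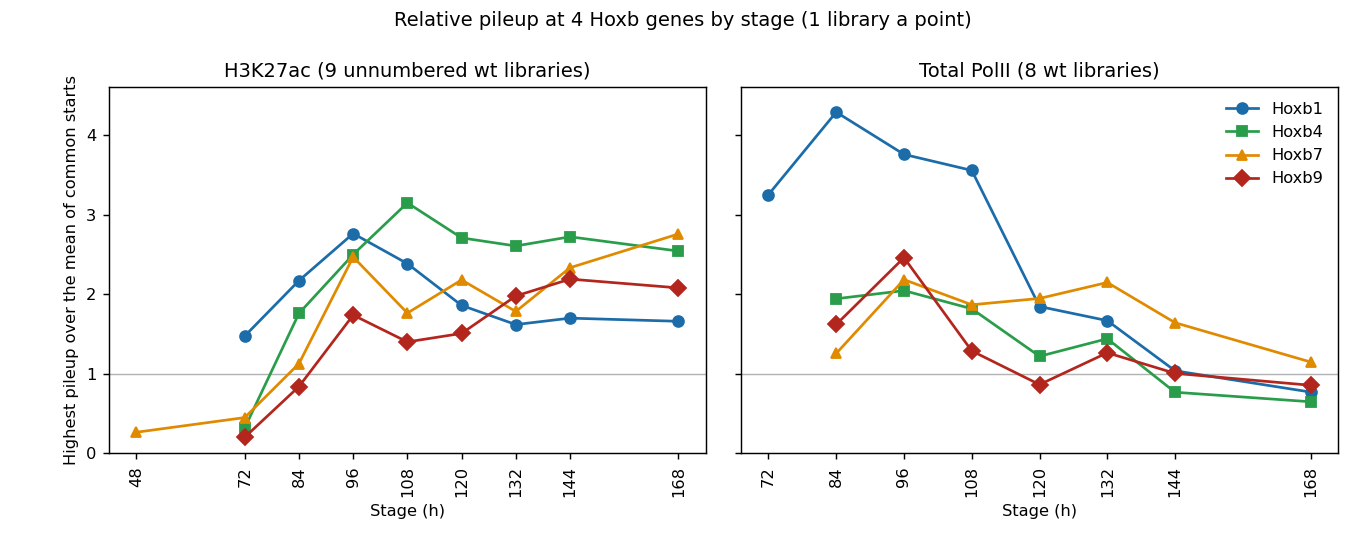
Relative pileup of H3K27ac (left, unnumbered wt libraries) and total PolII (right) in 4 Hoxb windows, by stage in hours, with 1 library a point and the mean of common starts at 1. In these H3K27ac libraries Hoxb1 stands at 2.76 at 96 h and 1.66 at 168 h, and PolII at Hoxb1 stands at 4.29 at 84 h and 0.769 at 168 h.

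Along the cluster H3K27ac was called at all 9 stages at 4 places, which were an exon of Gm53 between Hoxb13 and Hoxb9 (chr11:96251498-96253112), the Hoxb7 start (chr11:96285884-96287507), an exon of Gm11536 and upstream Hoxb3 transcripts (chr11:96341485-96342750), and Hoxb2 (chr11:96352007-96355091). A region between Hoxb13 and B2 (chr11:96203226-96203952) was called from 48 h to 120 h and not at 132, 144 or 168 h. The stretch between Hoxb4 and Hoxb3 was 1.7% covered at 48 h and 10.3% to 22.2% from 72 h onward in the unnumbered libraries. That between Hoxb3 and Hoxb2 was covered at 72 h to 120 h (7.4% to 24.7%) and not at 48 h or from 132 h onward.

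The 3 wt libraries at 120 h were set against the 3 at 96 h. Of the 9 covered Hoxb genes, 3 were lower at 120 h with no overlap (Hoxb1, Hoxb7 and Hoxb8) and none was higher, beside a background of 21.9% of 13576 genes lower and 4.07% higher. Hoxb8 had 13.9%, 19% and 10.8% at 120 h, against 29.2%, 33.4% and 31.8% at 96 h. The highest value at 120 h lay below the lowest at 96 h. Hoxb1 had 51.9%, 41.4% and 46.1% at 120 h, against 58.3%, 56.0% and 66.7% at 96 h, and its relative pileup also did not overlap, at 2.40, 2.58 and 1.86 at 120 h against 3.12, 3.13 and 2.76 at 96 h. The median difference was -3.63 percentage points over the Hoxb genes and -0.68 over all genes tested. On relative pileup Hoxb1 was the only member lower and Hoxb5 the only one higher, so that the calls for Hoxb7 and Hoxb8 rested on covered length. On that measure 10.9% of 8750 genes were lower and 11.1% higher. An exact permutation test cannot pass 0.05 with 3 libraries against 3, and no other test was made.

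Total PolII lay over the windows of Hoxb1 and Hoxb8 at every stage from 72 h. It lay over those of Hoxb4, Hoxb7 and Hoxb9 from 84 h, and over that of Hoxb6 at 144 h and 168 h. At Hoxb8 no PolII region lay within 1 kb of an annotated start at any stage, and no summit lay in the window at 72 h. The stretch between the Hoxb8 and Hoxb7 windows was also covered at each stage, over 63.8% at 72 h. Hoxb1 had 41.8% at 72 h, 38.2% at 84 h and 16.7% to 25.3% from 96 h to 168 h. Hoxb2 had 31.4% at 72 h, 15.3% at 84 h and at most 10.4% thereafter. Hoxb4 had no region at 72 h, 49.8% at 84 h and then 24.7%, 29.8%, 26.8%, 16.7%, 20.0% and 5.79% from 96 h to 168 h. Hoxb1 and Hoxb2 were thus widest at 72 h and Hoxb4 at 84 h. Over all protein-coding genes the share with a PolII region was also largest at 72 h, 47.0% against 37.1% to 42.5% at the later stages.

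Among the posterior genes, Hoxb7 was widest at 144 h and Hoxb9 at 168 h, and neither passed the test of time given below. Hoxb7 had 0% of its window covered at 72 h and 12.8%, 11.1%, 9.78%, 14.8%, 20.2%, 31.2% and 26.4% from 84 h to 168 h. Hoxb9 had 0% at 72 h and 26.2%, 22.1%, 20.0%, 21%, 25.2%, 30.2% and 33.9%. The Hoxb6 window was covered at 144 h (5.73%) and 168 h (4.37%) alone, and its starts, with 1 kb on each side, also at 132 h (3.57%). By the study's figures the 144 h and 168 h libraries had the most sequenced read pairs of this assay. Hoxb8 stayed between 6.22% and 10.7%. Hoxb3, Hoxb5 and Hoxb13 had no PolII region in their windows.

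In the test over 8 stages no gene of 11061 passed in either direction (0% rising and 0% falling after adjustment of exact permutation p-values, with 305 rising and 414 falling at an unadjusted p under 0.05). Hoxb7 had the highest rho of the 7 Hoxb genes tested, 0.88 (unadjusted exact permutation p = 0.00724, adjusted p = 0.650), and Hoxb1 the lowest, -0.55. In the other clusters Hoxd10 (rho = 0.87) and Hoxa10 (0.79) were highest, each with the same adjusted p of 0.650 in the exact test. In relative pileup, over 9791 common starts, Hoxb1 had 3.25, 4.29, 3.76, 3.56, 1.84, 1.67, 1.04 and 0.769 times the mean at the 8 stages from 72 h to 168 h. Hoxb7 had 1.25, 2.18, 1.87, 1.95, 2.15, 1.64 and 1.15 from 84 h to 168 h. From 120 h onward Hoxb7 thus stood above Hoxb1, which had led at every earlier stage with a value for both.

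Outside the windows PolII was called at all 8 stages in an intron of the upstream Hoxb3 transcripts (chr11:96332705-96333811), where H3K27ac was also called from 72 h and NIPBL from 96 h onward. It was called from 84 h over an exon of Hoxb5os (chr11:96306578-96307458), in the place of a CDX2 region, and from 108 h over an exon of Gm53 (chr11:96250856-96251351).

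Elongating PolII was called over different members at different stages. At 72 h it was called over Hoxb1 (22.4% of the window) and Hoxb2 (6.60%) and over no other member, and at 84 h, in a short list, over Hoxb3 (4.6%) and Hoxb2 (1.31%). At 96 h it covered 60.7% of the Hoxb3 window, 32.3% of Hoxb7, 15.8% of Hoxb4, 9.79% of Hoxb6, 7.92% of Hoxb1, 7.16% of Hoxb8 and 5.04% of Hoxb9. At 120 h it was called at Hoxb7 (32.1%), Hoxb8 (16.4%), Hoxb3 (15.8%) and Hoxb9 (3.89%), and at 144 h, in the list merged from 3 samples, at Hoxb7 (25.9%), Hoxb9 (13.3%), Hoxb6 (4.69%) and Hoxb8 (3.20%). Hoxb1 and Hoxb2 had no call at 120 h or 144 h. None of the calls over the Hoxb8 window lay within 1 kb of an annotated Hoxb8 start.

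The NIPBL lists held 16, 22, 14, 17, 32 and 26 regions between the ends of the cluster at the 6 stages from 96 h to 168 h. The 72 h and 84 h lists, the shortest of this assay, held 1 and 2. At 72 h the only region in the cluster lay in Hoxb9 (6.11% of its window), and at 84 h there were 2, in Hoxb4 and Hoxb8. Hoxb1 then had 12.9%, 51.4%, 26.2%, 47.7%, 59.9% and 37.8% at 96, 108, 120, 132, 144 and 168 h. Hoxb2 had 8.94%, 48.2%, 30.9%, 48.9%, 67.6% and 53.2%, and Hoxb3 had 0%, 9.09%, 5.95%, 19.1%, 32.3% and 24.2% at these stages. Hoxb7 and Hoxb13 were not called at any stage, and Hoxb6 at 108 h alone (4.96%).

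Over 8 stages 2 of the 8 Hoxb genes tested rose in NIPBL coverage, Hoxb2 (rho = 0.95, adjusted p = 0.0348) and Hoxb3 (rho = 0.93, adjusted p = 0.0420), by the exact two-sided permutation test adjusted over 13023 genes. The background was 6.40% of genes rising (834 genes) and 0% falling (36 at an unadjusted p under 0.05). The median rho was 0.69 over the Hoxb genes and 0.64 over all genes tested, so that the HoxB genes as a group lay close to the rest. Of 27 other Hox genes 1 rose, Hoxc4 (rho = 0.93, adjusted p = 0.0420 in the exact permutation test), followed by Hoxa5 (0.90, adjusted p = 0.0582 in the same exact test). List length moved with the trend. Sequenced read pairs, by the study's figures fewest at the first stage and most at the last, were not entered in the test. With lists cut to equal length rho was 0.60 for Hoxb2 and 0.25 for Hoxb3 and neither passed, nor did any gene. Leaving out any 1 stage other than 96 h also ended both calls, with rho at 0.92 or above for Hoxb2 and 0.89 or above for Hoxb3. Over all alternatives the adjusted p ranged from 0.0300 to 0.428 for Hoxb2 and from 0.0321 to 0.856 for Hoxb3, in exact permutation tests.

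Where it was called, NIPBL had its highest relative pileup, over 1755 common starts, at Hoxb2, Hoxb4, Hoxb5 and Hoxb8. Hoxb4 had 3.41, 2.25, 3.90 and 3.41 times the mean of common starts at 108, 132, 144 and 168 h, and Hoxb8 had 3.55, 2.01, 2.29, 3.26 and 2.90 from 108 h to 168 h. Hoxb1 had 1.21 to 1.98.

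H3K27me3 was called at Hoxb13 in every wt list, and over fewer of the other members in the later lists. The Hoxb13 window was covered over 11.8% at 72 h, 13.9%, 14.5% and 6.69% in the 3 libraries at 96 h, 23.4% at 120 h and 14.2% at 144 h. A pair of regions between Hoxb13 and B2 (chr11:96200607-96202688 and chr11:96203336-96205326) was called in all 6 wt lists as well. The number of regions in the cluster was 19 at 72 h, 20, 20 and 13 at 96 h, 13 at 120 h and 8 at 144 h. Hoxb1 (7.52%) and Hoxb3 (16%) were covered at 72 h alone, Hoxb7 at 72 h (11.5%) and 96 h (6.69%, 11.5% and 5.33%), Hoxb9 at 72 h (4.35%), in 1 of the 3 libraries at 96 h (7.06%) and at 120 h (8.86%), and Hoxb2, Hoxb4, Hoxb5 and Hoxb8 in none of the 6 lists. The 144 h and 72 h lists were of similar length, with 7680 and 7732 regions. The calls are narrow peaks scored against the background around them, whereas the study describes H3K27me3 domains in every Hox cluster. The extent of such a domain, or its absence over a window, cannot be read from these calls.

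The starts, with 1 kb on each side, were also classed by state. H3K27ac was gained (absent at 48 h, present in all 3 libraries at 120 h) at 6 of 10 Hoxb genes (Hoxb1, Hoxb2, Hoxb3, Hoxb5, Hoxb8 and Hoxb9), beside 1.20% of all protein-coding genes and 8 of 29 other Hox genes. PolII was gained (absent at 72 h, present at 144 h and 168 h) at Hoxb3, Hoxb4, Hoxb6 and Hoxb9, beside 1.24% of all genes and 13 of 29 other Hox genes. H3K27me3 was lost (present at 72 h, absent at 144 h) at Hoxb1, Hoxb3, Hoxb7 and Hoxb8, beside 3.34% of all genes and 7 of 29 other Hox genes. Hoxb3, Hoxb6, Hoxb8 and Hoxb9 have several annotated starts, any of which could count. The H3K27me3 call at Hoxb8 lay upstream of its window, which had no region in any wt list. Genes with an H3K27me3 region at a start numbered 5 at 72 h, 3 in each library at 96 h, 4 at 120 h and 1 at 144 h. With a minimum −log10 q of 5 no Hoxb start counted as having lost H3K27me3.

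RAD21 sat at the CTCF sites of the cluster at unequal height. Height is given as the pileup of a site relative to the mean log2 pileup of 19959 sites called in both wt CTCF lists and all 16 wt RAD21 lists, and 7 HoxB sites were among these. As the median over wt libraries, B7 had 1.98 times the mean (higher than 87.9% of the common sites), B9 1.65, B3 1.47 and B4 1.32. B8 had 0.570, B1 0.567 and B6 0.401 times the mean, the last higher than 4.52% of the common sites. B2 and B10 were called in 15 of the 16 lists, B12 in 10, B5 in 3 and B11 in none. The 2 sites with a plus-strand match, B7 and B9, were thus the highest in RAD21, while B2, whose match scored highest, had 0.293.

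In time, B7 had stage means (log2) of 1.36, 1.05, 1.19, 1.19, 0.96, 0.56, 0.85 and 0.79 at 48, 72, 84, 96, 108, 132, 144 and 168 h. B6 stood at -1.81, -1.60, -1.52, -1.73, -0.92, -0.64, -0.88 and -0.94 at these stages, and B8 at -1.53 at 48 h and 0.14 at 168 h. From 108 h onward B7 lay below, and B6 and B8 mostly above, their earlier values. None of the 7 sites passed the test over 8 stages (exact two-sided permutation, adjusted over all common sites), beside a background of 8.08% of sites rising (1612) and 6.49% falling (1295). B7 came nearest (rho = -0.83, exact permutation p = 0.0154, adjusted p = 0.0728), then B6 (rho = 0.76, adjusted p = 0.120 in the same exact test) and B8 (rho = 0.71, adjusted p = 0.159 in the same exact test). The labels give the cells of these libraries under 2 tags, cell type (9 libraries) and cell line (7). The 48 h stage had the cell line tag only and the 168 h stage the cell type tag only, so that tag and stage cannot be told apart between these ends. Within the tags rho was -0.64 and -0.79 for B7, 0.54 and 0.61 for B6, and 0.29 and 0.86 for B8, in the cell type and the cell line libraries in that order, and no site of the genome passed within the first.

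**Figure D4:**
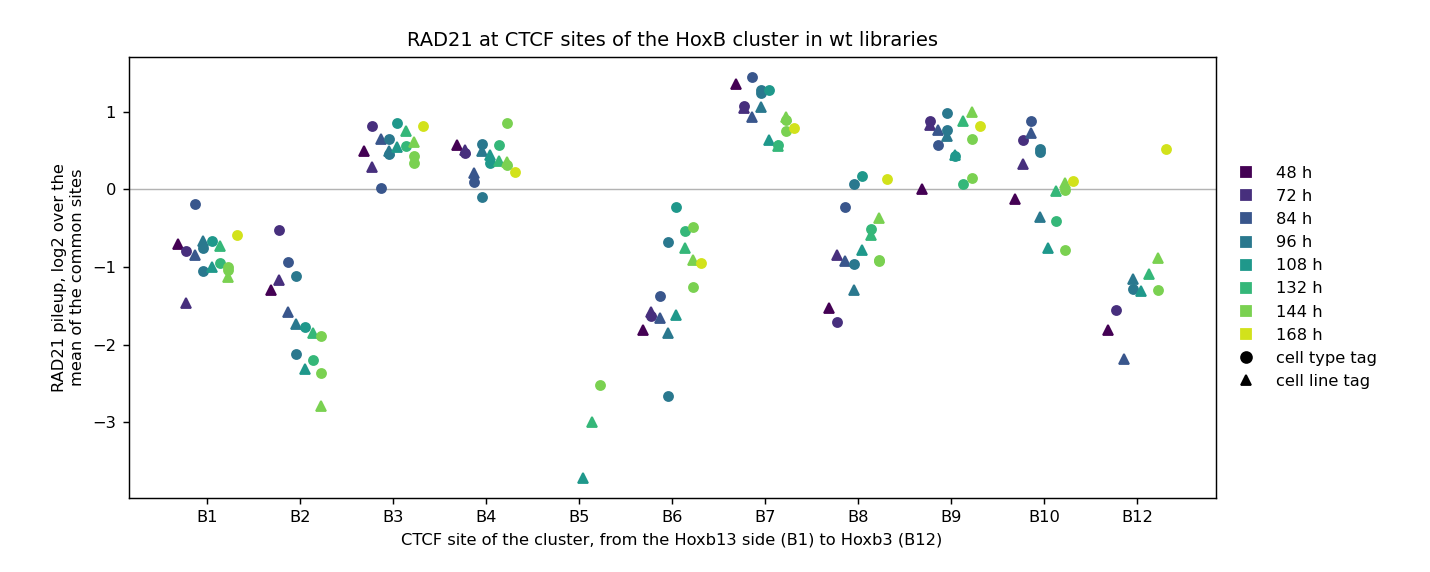
RAD21 pileup at each CTCF site of the HoxB cluster in wt libraries, as log2 over the mean of the common sites, with 1 point a library, color and left-to-right place for the stage, and shape for the label tag. B7 lies above the mean in all 16 libraries and B6 below it in all 16.

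Away from CTCF, 24 of 46 RAD21 places and 26 of 42 NIPBL places in the cluster overlapped no region of any CTCF list, mutant lists included. Of these, 11 and 7 were called in 1 list alone. Counted so, the most frequent RAD21 one lay before Hoxb1 (chr11:96363695-96364263) and was called in 5 of 16 lists, of 72, 96, 132 and 144 h. This count leaves out RAD21 over CTCF regions of mutant lists alone, as in the Hoxb1 window, which had no region in either wt CTCF list. RAD21 covered 15.9% and 23.8% of that window in wt at 132 h, 5.29% at 48 h and 0% in both libraries at 72 h. The Hoxb2 window had a CTCF region in wt at 168 h but not at 72 h. RAD21 covered 8.07% and 45.3% of it in wt at 132 h, 33.0% at 48 h and 0% in all libraries at 96 h.

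Deletion of CBS1 in HoxD was then compared with wt at 96 h for RAD21 at HoxB. At B7 the log2 values were 0.93 and 0.92 in Del(CBS1), against 1.24, 1.28 and 1.05 in wt. Both mutant values lay below all wt values (difference of the means -0.27, exact permutation p = 0.2, two-sided, where 0.1 is the smallest that 2 against 3 allows). The other 8 sites with a value overlapped, with differences from -0.37 (B10) to 0.21 (B6). The median difference was -0.07 over the 9 sites and -0.01 over 30864 sites, of which 9.83% were lower and 8.26% higher in Del(CBS1) without overlap. Both Del(CBS1) libraries carry the cell line tag, and against the 1 wt library of that tag the difference at B7 was -0.13 and the median 0.01. In the single Del(CBS1-5) library at 120 h, a stage without wt RAD21, B7 stood at 0.68, B9 at 0.66, B6 at -1.28 and B8 at -0.72.

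For H3K27ac the numbered libraries were compared, 2 mutant against 2 wt. An exact permutation test cannot pass 0.05 at this size and no other test was made, so that values and overlap are given. In Del(CBS1) at 96 h, 6 of 9 Hoxb genes were higher without overlap (Hoxb1, Hoxb2, Hoxb4, Hoxb5, Hoxb8 and Hoxb9) and none lower, beside 21.9% of 12732 genes higher and 12.2% lower. Hoxb4 had 30.2% and 32.6% in Del(CBS1), against 18.9% and 18.0% in wt, but 44.3% in the unnumbered wt library. In Del(CBS1) at 120 h again 6 were higher (Hoxb2, Hoxb3, Hoxb4, Hoxb6, Hoxb7 and Hoxb8) and none lower, beside 39.7% higher and 6.05% lower of 12450 genes. Hoxb8 had 29.7% and 28.0% in Del(CBS1) at 120 h, against 13.9% and 19% in wt and 10.8% in the unnumbered wt library, which makes it one of the few members apart from all wt libraries in covered percent. In means this is 28.9% ± 1.17 (SD, n = 2) in Del(CBS1) and 14.6% ± 4.18 (SD, n = 3) in wt. Its height went the other way. The relative pileup of Hoxb8 in Del(CBS1) at 120 h was 2.58 and 2.78, below both numbered wt libraries. Over the 3 wt libraries it ran from 2.43 to 3.25.

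In Del(CBS1-2) at 96 h, 8 of 9 Hoxb genes were higher (all but Hoxb5) and none lower, beside 26.7% and 12.5% of 12963 genes. At 120 h 7 were higher (all but Hoxb5 and Hoxb9) and none lower, beside 55.2% and 2.38% of 12251 genes. Hoxb3 had 11.8% and 11.6% in Del(CBS1-2) at 96 h, against 6.73% and 7.23% in wt and 6.97% in the unnumbered wt library. In height Hoxb3 was lower there than in both numbered wt libraries (log2 difference of relative pileup -0.53). The relative pileup was 1.24 and 1.42 in the mutant and ran from 1.13 to 1.94 over the 3 wt libraries. Hoxb1 had 65.3% and 67.7% in Del(CBS1-2) at 120 h, against 51.9% and 41.4% in wt and 46.1% in the unnumbered one. Hoxb6 had 8.96% and 9.52% in Del(CBS1-2) at 120 h, against 0% in both numbered wt libraries and 9.04% in the unnumbered one, so that the groups overlap once that library is counted.

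The median difference over the Hoxb genes was 3.41 and 9 percentage points in Del(CBS1) at 96 h and 120 h and 7.69 and 9.80 in Del(CBS1-2), against 0.11, 0.51, 0.18 and 0.86 over all genes. For the genes of HoxA, HoxC and HoxD it was 2.29, 3.39, 4.56 and 9.80 in the same order. The other Hox genes were higher without overlap at 4 of 14 and 7 of 18 in Del(CBS1) and 11 of 16 and 18 of 21 in Del(CBS1-2), at 96 h and 120 h. List length moved with genotype at 120 h, with 62577 and 63020 regions in Del(CBS1) and 62965 and 61894 in Del(CBS1-2), against 53644 and 51590 in wt, and its part in the result was not tested. The Del(CBS1-2) libraries carry the cell line tag and all wt H3K27ac libraries the cell type tag, so that tag and genotype cannot be told apart there. With the unnumbered wt library added, 2 Hoxb genes stayed higher without overlap in Del(CBS1) at each stage (Hoxb5 and Hoxb8 at 96 h, Hoxb7 and Hoxb8 at 120 h) and 4 in Del(CBS1-2) (Hoxb3, Hoxb6, Hoxb7 and Hoxb8 at 96 h, and Hoxb1, Hoxb3, Hoxb7 and Hoxb8 at 120 h), with none lower. Over all genes 8.41% and 23.2% were then higher in Del(CBS1) and 9.40% and 36.9% in Del(CBS1-2), at 96 h and 120 h, and 8.84%, 2.08%, 8.33% and 0.910% were lower in these 4 contrasts in the same order.

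On relative pileup, a measure of height added after seeing the data, the direction was mixed in 3 of the 4 contrasts. Of the 8 genes with a value in each library, Del(CBS1) had 4 higher and 2 lower at 96 h and 2 higher and 2 lower at 120 h, and Del(CBS1-2) had 2 higher and 4 lower at 96 h and 6 higher and none lower at 120 h. Over all genes with such values the shares higher and lower were 19.2% and 24.5% in Del(CBS1) at 96 h, 19% and 25.8% at 120 h, 20.7% and 37.2% in Del(CBS1-2) at 96 h, and 20.5% and 31.2% at 120 h. Hoxb9 had 1.82 and 1.81 in Del(CBS1) at 96 h, against 1.90 and 2.12 in wt and 1.74 in the unnumbered wt library, where its covered percent was higher in the mutant than in both numbered wt libraries. Hoxb7 had 3.52 and 3.32 in Del(CBS1-2) at 120 h, against 2.66 and 2.77 in wt and 2.18 in the unnumbered wt library, and was higher on both measures.

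**Figure D5:**
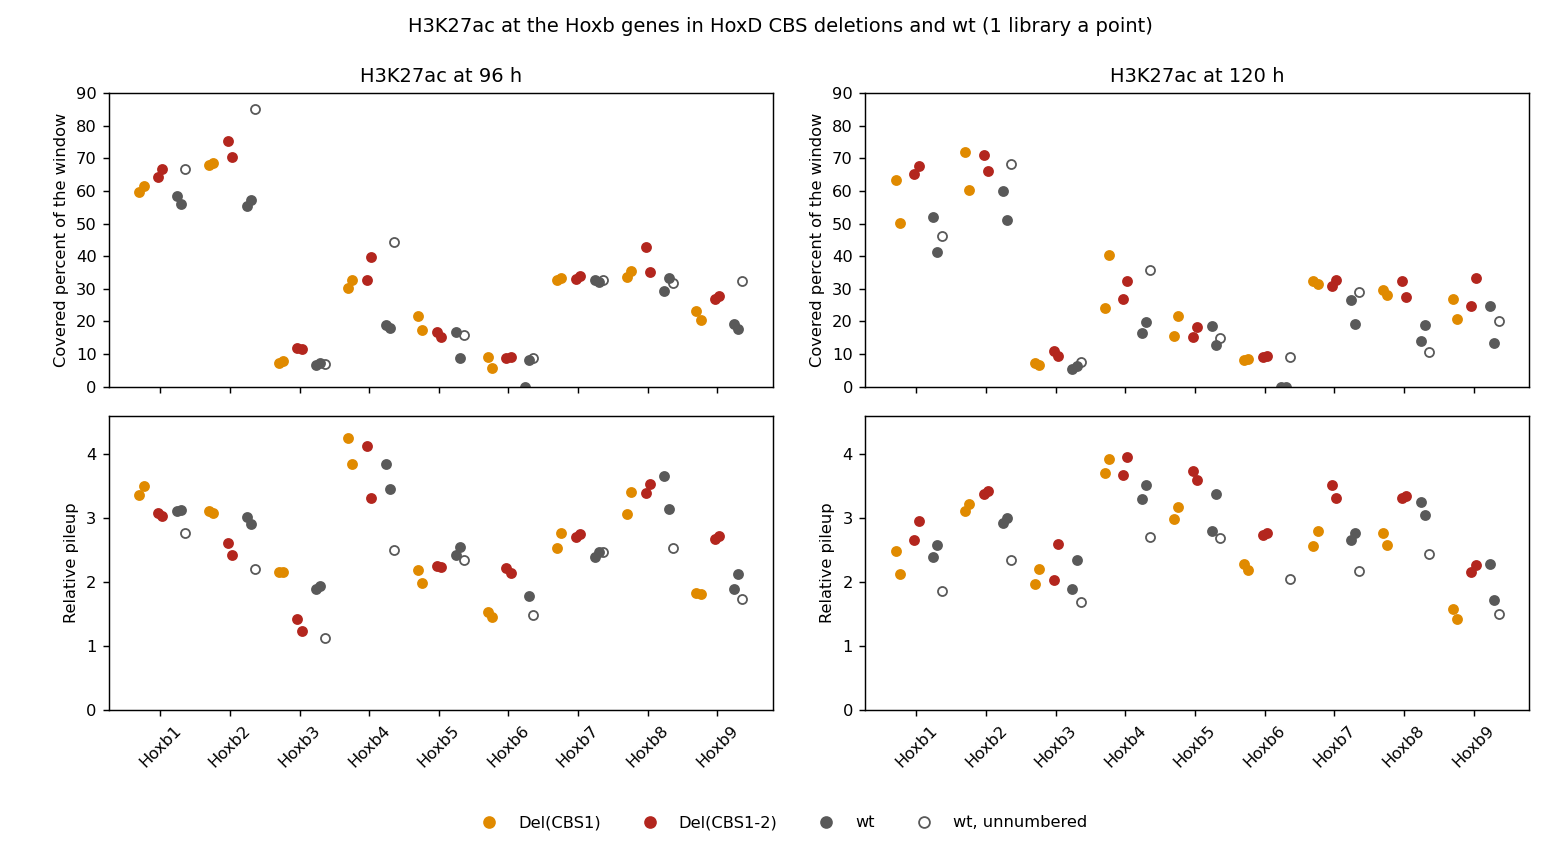
H3K27ac at Hoxb1 to Hoxb9 in Del(CBS1), Del(CBS1-2) and wt libraries at 96 h (left) and 120 h (right), as covered percent of the window (top) and as relative pileup (bottom), with 1 library a point and the unnumbered wt library as an open circle. At 120 h Hoxb8 lies between 27.3% and 32.5% in the mutants and at 19% or below in wt. In relative pileup at 120 h Hoxb8 in Del(CBS1) lies below both numbered wt libraries.

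H3K27me3 was compared between 2 Del(CBS1-5) and 2 numbered wt libraries at 96 h. Of 5 covered Hoxb genes, Hoxb6 was lower without overlap (4.93% and 6.51% in Del(CBS1-5), against 7.58% and 7.23% in wt) and none was higher, beside 34.3% of 4683 genes lower and 2.52% higher. In the unnumbered wt library Hoxb6 had no region, so that Hoxb6 is not apart from all wt libraries. With that library no Hoxb gene was lower or higher without overlap, beside 18.7% of 4839 genes lower and 1.65% higher. Hoxb13 had 14.0% and 19.1% in Del(CBS1-5), against 13.9% and 14.5% in wt, and the groups overlapped. Hoxb7 had 7.04% and 23.9% in Del(CBS1-5), against 6.69% and 11.5% in wt, again with overlap. The median difference was 2.35 percentage points over the Hoxb genes and -0.51 over all genes, and the 2 mutant lists themselves differed in length, with 7212 and 10844 regions.

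The genes most like HoxB in H3K27ac were sought outside the Hox clusters, as those whose covered percent over the 9 stages had the highest Pearson's r with the mean of Hoxb1 to Hoxb9. They were Pak7 (r = 0.95), Hist1h3i (0.95), Aida (0.95), Gm10715 (0.94) and Cramp1l (0.94). Their levels differed widely, with Pak7 at 0% at 48 h and 2.81% at 96 h and Gm10715 at 8.02% and 43.3% at these stages. These correlations rest on 9 libraries shared by all genes and are a description.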

How the data were processed

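Chromatin immunoprecipitation of mouse stembryos was read from 80 peak lists of 82 samples in 8 assays, 61 of them wt (the 3 pSer2 PolII samples at 144 h were merged by the authors into 1 list). H3K27ac, H3K27me3, CDX2 and pSer2 PolII were assayed by ChIP-seq, and CTCF, RAD21, NIPBL and total PolII by ChIPmentation, in which Tn5 adds the adapters on the beads. Per the methods of the study and the submitters' processing notes, reads were trimmed with cutadapt 1.16, mapped to mm10 with Bowtie2 2.3.4.1 (for Ins(2xCBS-d4d8), with an edited chromosome 2) and filtered with SAMtools 1.8, and peaks were called on each library by MACS2 2.1.1.20160309 without input. The authors deposited, for each peak, a fold enrichment (pileup as a ratio to the background around it) and −log10 values of p and of q, together with a score that was not used here.

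Peaks on the 21 assembled chromosomes were merged into regions. Pileups were solved from the fold enrichment and −log10 p as whole numbers within 0.001, for at least 99.4% of peaks in each list. They were used to compare libraries after division by the mean over common starts or sites. Gene windows (coding span with 1 kb, alternative 5 kb) and starts came from GENCODE vM21 on GRCm38, the same build. Time trends used Spearman's rho per gene or site with exact two-sided permutation p-values, adjusted by Benjamini-Hochberg over all genes or sites at 0.05. Scripts were tested on simulated data and used Python 3.11.15, NumPy 2.4.6, SciPy 1.17.1, pandas 2.3.3 and Matplotlib 3.10.9. With 1 library for most stages, stages served as the samples. The named genes are the 10 Hoxb genes, the 2 other Hox genes of highest rho in each assay, and the 5 genes most like HoxB in H3K27ac. The members, lists and tests were chosen with earlier results of these data known. No list was identical to another. Where no region is listed, enrichment did not reach the calling threshold, which depends on depth and on the background around the place. NIPBL at Hoxb4 at 144 h, for example, had a pileup of 250 fragments and a fold enrichment of 1.97.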

Additional observations from a re-analysis of the deposited data

Results flagged for a closer look

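H3K27ac height at 3 Hoxb genes in Del(CBS1-2) went opposite ways at the 2 stages. In relative pileup both mutant libraries lay below both numbered wt libraries at 96 h and above both at 120 h for Hoxb1, Hoxb2 and Hoxb5. The log2 difference between Del(CBS1-2) and wt was 0.20 higher at 120 h than at 96 h for Hoxb1 (0.17 at 120 h and -0.03 at 96 h), 0.43 higher for Hoxb2 (0.20 and -0.24) and 0.41 higher for Hoxb5 (0.26 and -0.15). The difference between the stages was not tested. At 96 h both mutant libraries lay above the unnumbered wt library for Hoxb1 (3.08 and 3.04, against 2.76) and Hoxb2 (2.61 and 2.42, against 2.20), so that the order there depends on the wt library used. The covered percent of Hoxb1 and Hoxb2 was higher in the mutant than in both numbered wt libraries at both stages. Against the unnumbered wt library this held for Hoxb1 at 120 h only, with 64.4% and 66.6% in Del(CBS1-2) and 66.7% in that library for Hoxb1 at 96 h, 75.4% and 70.3% against 85.1% for Hoxb2 at 96 h, and 66.1% and 70.9% against 68.1% for Hoxb2 at 120 h. No group of this series had 4 to 10 libraries of 1 stage, so single libraries were not screened for standing apart from their group.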

How the results depend on the processing

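The 56 results were recomputed under 650 alternative values in all. Of the counts and medians, 139 stayed and 80 moved, and of the values for single genes or sites 406 stayed, 21 lost and 3 gained significance and 1 changed sign. Genes with rising H3K27ac numbered 12, and 0 with starts in place of coding spans, with a −log10 q of at least 5 and with equal list length, 52 with Pearson's r, 30 with stage means over all wt libraries and 0 to 2 without 1 stage. Falling genes numbered 237, and 0, 0, 0, 664, 415 and 0 to 142 under the same alternatives. Genes rising in NIPBL numbered 834, and 315 with a −log10 q of at least 5, 0 with equal length, 1962 with Pearson's r and 0 to 4138 without 1 stage (falling, 0 to 6). The NIPBL rho of Hoxb6, called at 1 stage, was -0.08 with 1 kb and 0.92 with 5 kb. Hoxb2 (equal length, starts, q, 5 kb) and Hoxb3 (equal length, starts, q) lost their NIPBL calls. Rising RAD21 sites numbered 1612, and 0 within the cell type and 515 within the cell line libraries and 88 to 793 without 1 stage, and falling sites 1295, and 0, 611 and 116 to 854.

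H3K27me3 loss fell to 0 Hoxb starts with a −log10 q of at least 5. With the unnumbered wt library, Hoxb genes higher in H3K27ac fell to 2 and 2 in Del(CBS1) and 4 and 4 in Del(CBS1-2) (96 h, 120 h), and those lower in H3K27me3 to 0. With relative pileup (added after seeing the data) they numbered 4 higher and 2 lower in Del(CBS1) at 96 h, 2 and 2 at 120 h, 2 higher and 4 lower in Del(CBS1-2) at 96 h, 6 and 0 at 120 h, and 1 higher and 1 lower for 120 h against 96 h. Without 1 library in turn, higher genes ranged from 7 to 8 and 6 to 9 in Del(CBS1), and 8 to 9 (0 to 1 lower) and 7 to 9 (0 to 1 lower) in Del(CBS1-2). Without 1 library H3K27me3 gave 0 to 3 higher and 1 to 2 lower, the stage contrast 3 to 4 lower, and the RAD21 median -0.22 to 0.02. The causes were not tested.

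Replicate numbers share only a number: deviations of same-numbered libraries correlated at -0.07 to 0.09 for H3K27ac, 0.17 for H3K27me3 and 0.23 for RAD21, over 2 pairs each. With a replicate block 7 and 8 Hoxb genes were higher in Del(CBS1), 8 and 7 in Del(CBS1-2), 2 in H3K27me3 (1 lower), 1 for 120 h against 96 h (4 lower, block added after seeing the data), and the RAD21 median was -0.11. Peak lists carry no depth, so a missing region limits each statement on absence.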
